A study of Mus musculus with 9 samples.

Results

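The 4 miRNAs mmu-miR-451a, mmu-miR-144-3p, mmu-miR-144-5p and mmu-miR-486a-5p, known from red blood cells, were followed across the 9 livers of the study. They were chosen by name, and all 4 were found among the 1140 mature miRNA rows of the table. Small RNA libraries had been sequenced from whole liver of male C57BL/6 mice that were 8 weeks old at the start, with 3 mice in each of 3 groups. Mice of the control group (labelled NS) were given normal saline intraperitoneally for 8 weeks. Mice of the TAA group were given thioacetamide, a hepatotoxin that causes fibrosis, by the same route for 8 weeks. Mice of the recovery group were given the same 8 weeks of TAA and were then left without injections for a further 8 weeks. There was no saline group of the later age, so recovery and the additional 8 weeks of age cannot be told apart in the recovery group. Whether the livers were perfused before collection is not given in the sources used here. The question addressed was whether these miRNAs differ between the groups, and whether they vary together from liver to liver as they would if the blood held in the tissue set their level.

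MiR-144 and miR-451a are made from 1 primary transcript that the erythroid transcription factor GATA1 switches on, and both remain abundant in circulating red cells, which have no nucleus. MiR-451a is unusual in its maturation: its short hairpin is not cut by Dicer but is sliced by Argonaute 2 and then trimmed. The gene of miR-486 lies within Ank1, the gene of the red cell membrane skeleton protein ankyrin, and its miRNA is made in erythroid cells and also in skeletal and heart muscle. In small RNA profiles of solid tissue and serum, miR-451a is often used as a sign of blood or of lysed red cells.

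The mature sequences are shown because they are what the reads were matched to, with the seed (bases 2 to 8, which pair with target transcripts) in capitals. They were taken from RefSeq on GRCm38.p6 and matched 3 of the 4 members by name.
mmu-miR-451a: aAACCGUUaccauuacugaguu
mmu-miR-144-3p: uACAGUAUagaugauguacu
mmu-miR-144-5p: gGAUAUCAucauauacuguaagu
None of the 3 seeds was found in another of the 1679 mature miRNAs of that table. The entry for mmu-miR-486a-5p is named only.

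The hairpins of the mir-144 and mir-451a cluster are shown with the mature parts in capitals, because they show that 2 arms of the first and 1 arm of the second were counted.
Mir144: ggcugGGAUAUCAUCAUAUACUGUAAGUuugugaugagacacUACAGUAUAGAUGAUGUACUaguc
Mir451a: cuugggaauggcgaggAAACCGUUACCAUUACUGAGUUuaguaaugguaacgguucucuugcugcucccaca
On GRCm38, Mir144 lies at chr11:78073005-78073070 and Mir451a at chr11:78073170-78073241, both on the plus strand, with 99 bases between them. The mature miR-451a covers bases 17 to 38 of its 72-base hairpin and so reaches from the 5' arm into the loop. The annotation also places Mir451b on the minus strand over the Mir451a hairpin, and no row of that name was listed in the table. Mir486 lies at chr8:23142555-23142682 on the plus strand, within Ank1 (chr8:22974844-23150497). Of the 15 Ank1 transcripts that span it, 0 have an exon there, so the position is intronic. On the opposite strand the annotation places Mir3107 and the antisense gene Gm15816.

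Total counts per library were between 9071847 and 12983378. Levels are given as CPM on the TMM scale of edgeR (counts scaled to a common library size), which corrects the library total for changes in composition. The correction was large and followed the groups, with factors of 1.43 to 1.63 in the TAA livers against 0.739 to 0.792 in the control and 0.766 to 0.887 in the recovery livers. Because of this, fold changes were also computed on uncorrected library totals, where the median log2 fold change of all tested miRNAs was 1.23 for TAA against control, in place of 0.11 on the TMM scale. One library stood apart: TAA replicate 3 held 67184 counts of mmu-miR-1a-3p, a miRNA of skeletal and heart muscle, against 73 to 488 in the other 8 libraries. It also held 2281 counts of mmu-miR-133a-3p, against 3 to 14, and 943 counts of mmu-miR-206-3p, a skeletal muscle miRNA, against 3 to 50. The summed level of 5 muscle miRNAs, a list added after these values were seen, was 4740 CPM in that liver and between 9.73 and 50.9 CPM in the rest. Since miR-486 is also made in muscle, results that rest on this library are given with and without it. Hepatocyte miRNAs were abundant in every library, and the 4 on the list summed to between 149181 and 534671 CPM.

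MiR-451a was the most abundant of the 4. The control livers had 895, 729 and 1261 CPM, the TAA livers 354, 182 and 404 CPM, and the recovery livers 293, 582 and 558 CPM (replicates 1 to 3 in that order). All TAA and all recovery livers were below all control livers, while the TAA and recovery livers overlapped. The group means were 962 ± 272, 313 ± 116 and 478 ± 161 CPM (SD, n = 3). By mean abundance it ranked 35 of 1140 miRNAs in control liver, 61 in TAA liver and 49 in recovery liver.

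MiR-144-5p, from the 5' arm of the neighbouring hairpin, was found at 24.6, 25.3 and 23.3 CPM in the control livers. The TAA livers had 12.5, 6.07 and 21.5 CPM and the recovery livers 13.5, 21.8 and 19.97 CPM. The control values had a coefficient of variation of 4.23% and lay above all 6 others, although recovery replicate 2 and TAA replicate 3 came close to them. The coefficient of variation reached 57.9% among the TAA livers and 23.7% among the recovery livers. On library totals TAA replicate 3 had the highest value of all livers, 34.9 CPM, against 17.6 to 19.5 CPM in the controls.

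MiR-144-3p, from the opposite arm, was the rarest, with 75, 16 and 31 counts in the control, 38, 19 and 54 in the TAA and 7, 41 and 18 in the recovery libraries. On the TMM scale these were 7.29, 2.11 and 4.13 CPM, then 2.34, 1.28 and 3.63 CPM, then 0.748, 3.77 and 1.65 CPM. The 3 groups overlapped throughout. Counting error by itself gives a coefficient of variation of 15.7% to 21.3% at this depth, against 48.5% to 75.4% observed between mice. For miR-451a counting error was 1.11% to 1.44%, against 28.3% to 37.2% observed, so depth did not limit that miRNA.

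MiR-486a-5p was found at 62.3, 57.7 and 73.2 CPM in the control, 26.3, 23.2 and 54.1 CPM in the TAA and 35.3, 36.8 and 41.4 CPM in the recovery livers. All TAA and recovery values were below all control values, and the highest TAA value was that of replicate 3, the liver with the muscle miRNAs. The rows named mmu-miR-486a-3p and mmu-miR-486b-3p held nearly the same counts, differing from it by 3 to 18 and by -4 to 0 counts per library. Reads of the mir-486 hairpins therefore cannot be told apart by row, and the value is best read as that of mir-486 as a whole.

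**Figure D1:**
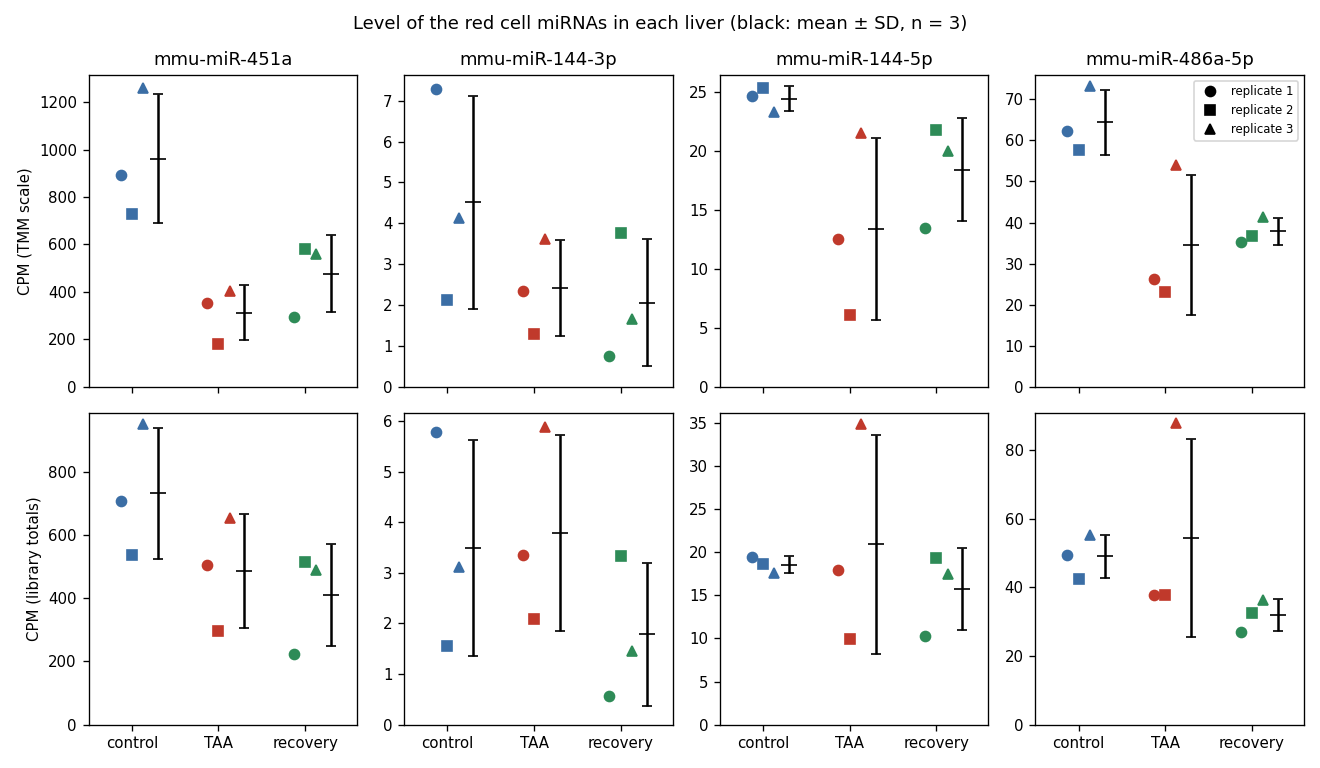
Level of each of the 4 miRNAs in every liver, in CPM on the TMM scale (top) and on library totals (bottom), with the replicate as the marker shape and mean ± SD (n = 3) in black. On the TMM scale the control values of miR-451a (729 to 1261 CPM) lie above the 6 others, and on library totals the TAA group overlaps the control for all 4.

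The first comparison asked how the 4 miRNAs stood in fibrotic liver. MiR-451a fell in the TAA group, by 1.71 ± 0.31 on the log2 scale (SE, edgeR quasi-likelihood test, FDR = 0.00273), or 3.27-fold. The other 3 did not pass both thresholds of a differentially expressed miRNA (DEM: FDR under 0.05 and a fold change of at least 2). Of all 420 miRNAs tested, 41.7% were DEMs, and 16.7% were DEMs that were lower, beside which 1 member of 4 is no unusual count. The log2 fold change of miR-486a-5p was -0.98 ± 0.33 (edgeR FDR = 0.0359), which missed the fold limit. MiR-144-5p had -0.96 ± 0.40 (edgeR FDR = 0.0750) and miR-144-3p -1.01 ± 0.53 (edgeR FDR = 0.140). MiR-451a, miR-144-5p and miR-486a-5p had no overlap between the groups, with the TAA livers lower, as had 27.4% of all tested miRNAs.

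Without TAA replicate 3, all 4 log2 fold changes lay further below 0. MiR-486a-5p then had -1.45 (edgeR FDR = 0.000938) and miR-144-5p -1.48 (edgeR FDR = 0.00654), and both became DEMs, beside 15.9% of the 434 miRNAs then tested that were lower DEMs. MiR-451a had -1.94 (edgeR FDR = 0.00384) and miR-144-3p -1.41 (edgeR FDR = 0.0846). The 1 library with the muscle miRNAs thus decided 2 of the 4 calls. What part muscle tissue in that liver had in these values was not tested.

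These directions depended on the scale. On library totals the log2 fold change of miR-451a was -0.59 ± 0.32 (edgeR FDR = 0.127), and those of miR-144-3p, miR-144-5p and miR-486a-5p were 0.10, 0.17 and 0.15, so none was a DEM on a scale where 58.3% of all tested miRNAs were. On that scale 57.4% were DEMs that were higher and 0.952%, or 4 of 420, DEMs that were lower. With library totals and TAA replicate 3 left out, a setting chosen after the data were seen, all 4 were again below 0, at -0.87 for miR-451a (edgeR FDR = 0.0427, under 2-fold), -0.36 for miR-144-3p, -0.41 for miR-144-5p and -0.38 for miR-486a-5p, and none was a DEM, beside 55.5% of all tested. A change of scale shifts all log2 fold changes by nearly the same amount. The place of the members among the other miRNAs is thus nearly fixed by construction, and its likeness on the 2 scales tests nothing. On both scales, 20 of the 420 tested miRNAs had a lower log2 fold change than miR-451a. MiR-144-3p had 70 miRNAs below it on the TMM scale and 69 on library totals, miR-144-5p 82 on both, and miR-486a-5p 76 and 78. In whole liver, fewer red cells in the tissue and less of a miRNA per cell cannot be told apart.

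The second comparison asked whether the miRNAs returned once TAA was withdrawn. Their log2 fold changes in recovery against TAA were 0.60 ± 0.35 for miR-451a, 0.45 ± 0.43 for miR-144-5p, 0.11 ± 0.33 for miR-486a-5p and -0.23 ± 0.59 for miR-144-3p (edgeR FDR = 0.211, 0.448, 0.815 and 0.779). None was a DEM in edgeR, DESeq2 or limma, and 0 of the 4 had an unadjusted p under 0.05 in these 3 tests with low counts filtered out, while 24.8% of the 440 tested miRNAs were DEMs in edgeR. Without that filter miR-451a had 0.60 ± 0.22 (edgeR FDR = 0.0364, under 2-fold). On library totals, where the median of all tested miRNAs was -0.98 in place of -0.12, all 4 values were below 0, from -1.08 for miR-144-3p to -0.25 for miR-451a. Without TAA replicate 3 the TMM values were 0.84, 0.99, 0.62 and 0.19 for miR-451a, miR-144-5p, miR-486a-5p and miR-144-3p, and the lowest edgeR FDR was 0.0597, that of miR-486a-5p.

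The third comparison set the recovery livers against the controls, where the TMM factors of the groups were closer. The median of all tested miRNAs was -0.025 on the TMM scale and 0.16 on library totals. MiR-451a fell by 1.05 ± 0.26 on the log2 scale (edgeR FDR = 0.0192), or 2.07-fold. MiR-486a-5p was lower by a log2 fold change of -0.80 ± 0.15 (edgeR FDR = 0.00365), which did not reach 2-fold. MiR-144-5p had -0.44 ± 0.20 (edgeR FDR = 0.220) and miR-144-3p -1.18 ± 0.55 (edgeR FDR = 0.246). Of the 391 miRNAs tested here, 11.3% were DEMs, and 0.767% were DEMs that were lower, which is 3 miRNAs including miR-451a. MiR-451a, miR-144-5p and miR-486a-5p did not overlap between the groups, with the recovery livers lower, as did 9.97% of all tested miRNAs.

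In this comparison miR-144-3p, miR-451a and miR-486a-5p stood near the bottom of all tested miRNAs. The places on the 2 scales are again nearly the same by construction. Only 2 of 391 had a lower log2 fold change than miR-144-3p and only 3 a lower one than miR-451a, and for miR-486a-5p the number was 7 on the TMM scale and 6 on library totals. MiR-144-5p had 35 miRNAs below it on both scales. The place of miR-144-3p was uncertain, as its log2 fold change was -0.62 without control replicate 1 and -1.92 without recovery replicate 2. The call of miR-451a was not firm. It was lost on library totals (-0.84, edgeR FDR = 0.0701, where 12.5% of all tested were DEMs), without control replicate 3, the highest of all livers (-0.83, edgeR FDR = 0.0736), and without recovery replicate 1, the lowest recovery liver (-0.77, edgeR FDR = 0.0439, under the fold limit). MiR-486a-5p kept an edgeR FDR under 0.05 on library totals (-0.62, FDR = 0.0315) and without each replicate in turn, where the highest FDR was 0.0201. In a fit of all 9 livers, which share 1 estimate of the spread, neither miRNA passed (-1.01 and -0.77, edgeR FDR = 0.108 and 0.144). The pairwise fits of this comparison hold no TAA library, so the liver with the muscle miRNAs does not enter them. It does enter the fit of all 9 livers.

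**Figure D2:**
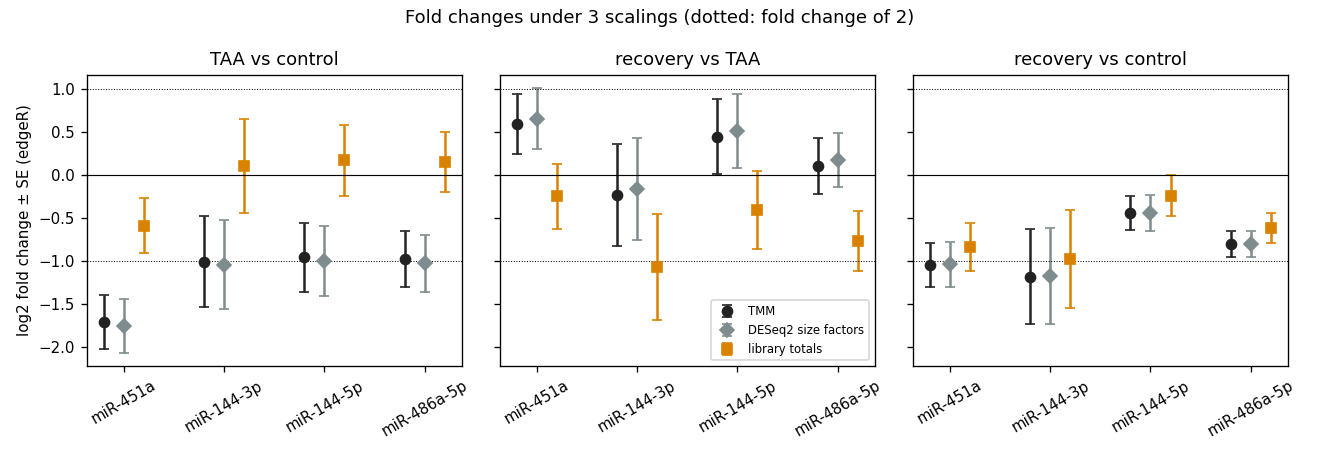
Log2 fold change ± SE from edgeR of the 4 miRNAs in the 3 comparisons, on 3 scales (TMM, DESeq2 size factors and library totals), with dotted lines at a 2-fold change. For TAA against control the TMM values lie between -1.71 and -0.96 and the library total values between -0.59 and 0.17, while for recovery against control all values lie below 0.

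If 1 source carried the 4 miRNAs in fixed proportions, the ratio of their counts would be the same in every library. A ratio within a library has no scaling factor, so it does not depend on the choice above. The 21 ratio differences were tested with an exact two-sided permutation test, which cannot go below p = 0.1 with 3 against 3 livers, and 0.5 was added to each count.

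MiR-451a exceeded miR-486a-5p 14.3-, 12.6- and 17.2-fold in the control, 13.4-, 7.85- and 7.46-fold in the TAA and 8.28-, 15.8- and 13.5-fold in the recovery libraries. The control and TAA livers overlapped, and the mean log2 ratio differed by -0.66 (exact permutation p = 0.2). MiR-144-5p and miR-486a-5p, which come from different chromosomes, had the steadiest ratio. Their counts stood at 0.395, 0.440 and 0.319 in the control, 0.476, 0.263 and 0.397 in the TAA and 0.383, 0.592 and 0.483 in the recovery libraries, and the log2 ratio differed by -0.051 between TAA and control (exact permutation p = 0.9).

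MiR-451a exceeded its cluster neighbour miR-144-5p 36.3-, 28.7- and 54.0-fold in the control, 28.2-, 29.8- and 18.8-fold in the TAA and 21.6-, 26.7- and 27.9-fold in the recovery libraries. The recovery livers all lay below the controls, with a log2 difference of -0.60 at the smallest p possible (exact permutation p = 0.1). The 2 arms of mir-144 stood at a 3p to 5p ratio of 0.0593 to 0.298, so the 5p arm was the more counted one in all 9 libraries. The log2 ratio of miR-451a to miR-144-3p was 8.04 ± 0.69 in the recovery and 7.04 ± 0.23 in the TAA livers with no overlap (SD, n = 3, exact permutation p = 0.1), with the low counts of miR-144-3p in its denominator.

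Across the 9 livers the log2 ratio of miR-144-5p to miR-486a-5p had an SD of 0.34, that of miR-451a to miR-144-5p 0.43 and that of miR-451a to miR-486a-5p 0.46. The log2 levels themselves had SDs of 0.86, 0.62 and 0.56 on the TMM scale for miR-451a, miR-144-5p and miR-486a-5p, and of 0.63, 0.51 and 0.49 on library totals. Dividing 1 of these 3 miRNAs by another thus left less spread than its own level had. For miR-144-3p the 3 log2 ratios had SDs of 0.71 to 0.76, and its level had 0.69 on the TMM scale. These cannot be set against each other. The 1 CPM added before the log narrows the spread of levels of 0.748 to 7.29 CPM, while ratios had 0.5 added to counts.

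The ratio of miR-451a to miR-23a-3p, in use as a measure of red cells in serum because red cells hold little miR-23a, was 4.34, 4.91 and 7.99 in the control, 1.58, 0.426 and 1.55 in the TAA and 1.35, 3.78 and 3.04 in the recovery libraries. All TAA and all recovery livers lay below all controls (log2 differences of -2.45 and -1.15, exact permutation p = 0.1 for each). MiR-23a-3p itself was at 171 ± 30.9 CPM in the control and 304 ± 108 CPM in the TAA group (SD, n = 3) with no overlap. Both parts of this ratio thus differed between TAA and control on the TMM scale. On library totals the miR-451a values of these 2 groups overlapped, and on DESeq2 size factors those of miR-23a-3p did. In recovery against control miR-23a-3p overlapped on each of these scales (ratio of means 1.08 on TMM).

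**Figure D3:**
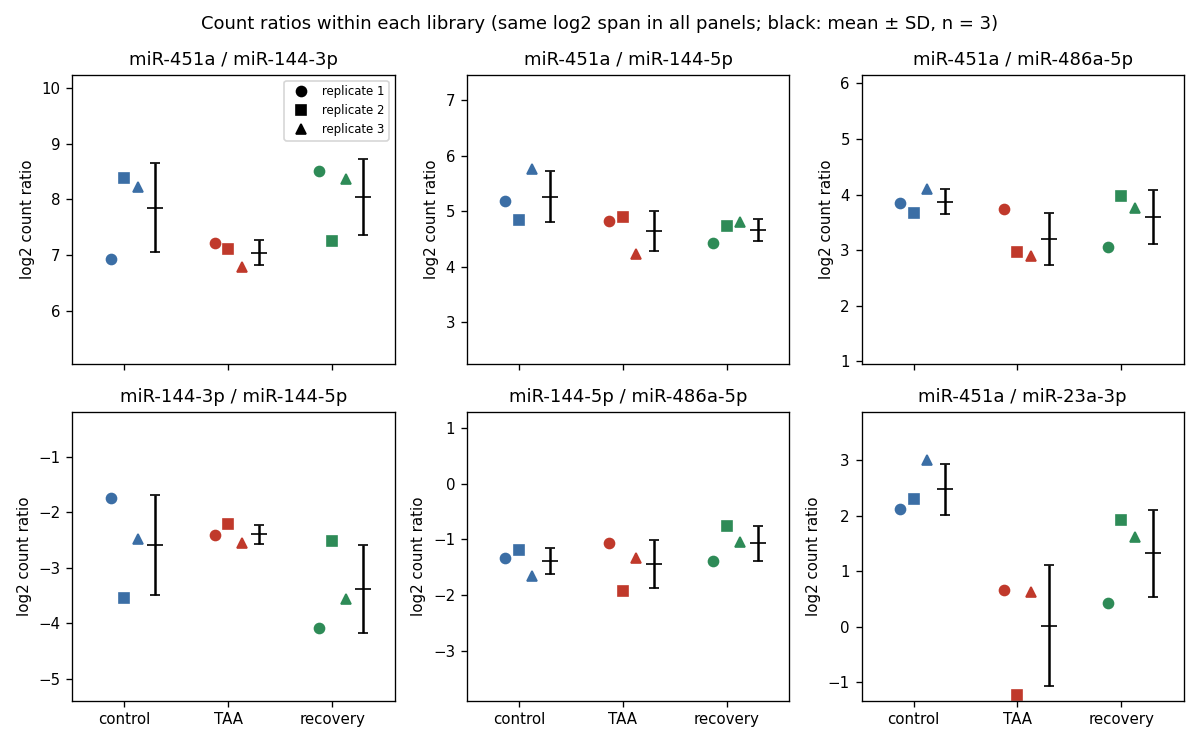
Log2 ratio of the counts of 2 miRNAs within each library, by group, with the replicate as the marker shape and mean ± SD (n = 3) in black. All panels span the same number of log2 units. The ratio of miR-144-5p to miR-486a-5p is the tightest (SD 0.34 over 9 livers) and that of miR-451a to miR-23a-3p the widest (SD 1.28).

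MiR-451a, miR-144-5p and miR-486a-5p varied together over the 9 livers, with the difference between the groups included, and the pairs with miR-144-3p had lower r. Livers were permuted across the groups, so the p values here do not separate that difference from variation between mice of a group. On the log2(CPM + 1) scale, the correlation of miR-451a was Pearson's r = 0.871 with miR-144-5p (Spearman's rho = 0.90), 0.872 with miR-486a-5p (rho = 0.917) and 0.698 with miR-144-3p (rho = 0.783). The exact permutation p values of r were 0.000565, 0.00236 and 0.0369, and 0.00169, 0.00471 and 0.0553 after adjustment over the 6 pairs of members. For rho they were 0.00203, 0.00131 and 0.0172, and 0.00608, 0.00608 and 0.0258 after adjustment. MiR-144-5p and miR-486a-5p had r = 0.862 and rho = 0.883 (exact permutation p = 0.000262 and 0.00308, adjusted 0.00157 and 0.00615). The 2 arms of mir-144 had r = 0.624 and rho = 0.633 (exact permutation p = 0.0726 and 0.0760, adjusted 0.0726 and 0.0760). MiR-144-3p and miR-486a-5p had r = 0.627 and rho = 0.683 (exact permutation p = 0.0715 and 0.0503, adjusted 0.0726 and 0.0604).

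Without the 2 livers farthest from the median of the first miRNA, r was 0.864 for miR-451a with miR-144-5p (exact permutation p = 0.0113) and 0.716 for miR-144-5p with miR-486a-5p (exact permutation p = 0.0345). It was 0.701 for miR-451a with miR-486a-5p and 0.666 for miR-451a with miR-144-3p (exact permutation p = 0.0835 and 0.101), with 7 livers left after TAA replicate 2 and control replicate 3 were removed. The first of these fell from 0.872 and no longer passed without them, while the second was close to its value over all 9 livers, which had not passed after adjustment. The 2 pairs left had r = 0.648 and 0.612 (exact permutation p = 0.109 and 0.155). Without TAA replicate 3, r of miR-451a with miR-486a-5p was 0.936 and with miR-144-5p 0.917 (exact permutation p = 0.00104 and 0.00112, adjusted 0.00335 for both). On library totals all 6 r were between 0.693 and 0.784, with adjusted exact permutation p of 0.0351 to 0.0429. No rho passed there (adjusted exact permutation p of 0.0517 to 0.178), and miR-144-5p with miR-486a-5p had rho = 0.50. Without the 2 livers farthest from the median, no r passed on library totals (exact permutation p of 0.0552 to 0.212). With library totals and without TAA replicate 3 they were between 0.507 and 0.859, and the lowest adjusted p was 0.0537.

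These correlations include the difference between the groups. With each group's mean removed, r was 0.790 for miR-451a with miR-144-5p, 0.645 with miR-486a-5p and 0.713 with miR-144-3p, and 0.809 for miR-144-5p with miR-486a-5p. All 6 were positive, from 0.459 to 0.809, but the exact permutation within groups gave p values from 0.0509 to 0.181 (adjusted 0.167 to 0.181), where the smallest possible was 0.00463. With library totals they were 0.599 to 0.829 (adjusted exact permutation p of 0.102 in all 6 pairs). Within groups, none of the 6 pairs passed the test on either scale, with 9 livers. Without TAA replicate 3, on the TMM scale, r within groups of miR-144-5p with miR-486a-5p was 0.413. That of miR-144-3p with miR-486a-5p was then 0.331 and that of miR-451a with miR-486a-5p 0.819. The highest value over the 9 livers, 0.809, thus depended on the liver with the muscle miRNAs. None of the 6 pairs passed without it (adjusted exact permutation p of 0.271 to 0.528).

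The order of the livers within a group was shared in part. In the TAA group replicate 3 was the highest and replicate 2 the lowest for all 4 miRNAs on the TMM scale. In the recovery group replicate 1 was the lowest for all 4. These places were not particular to the members. MiR-126a-3p of endothelium (5598, 5226 and 6457 CPM in TAA, 7533, 8335 and 8118 CPM in recovery) and miR-143-3p had them too. Other miRNAs did not, and miR-122-5p was highest in recovery replicate 1. In the control group the order differed between members, with replicate 3 highest for miR-451a and miR-486a-5p, replicate 1 for miR-144-3p and replicate 2 for miR-144-5p.

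**Figure D4:**
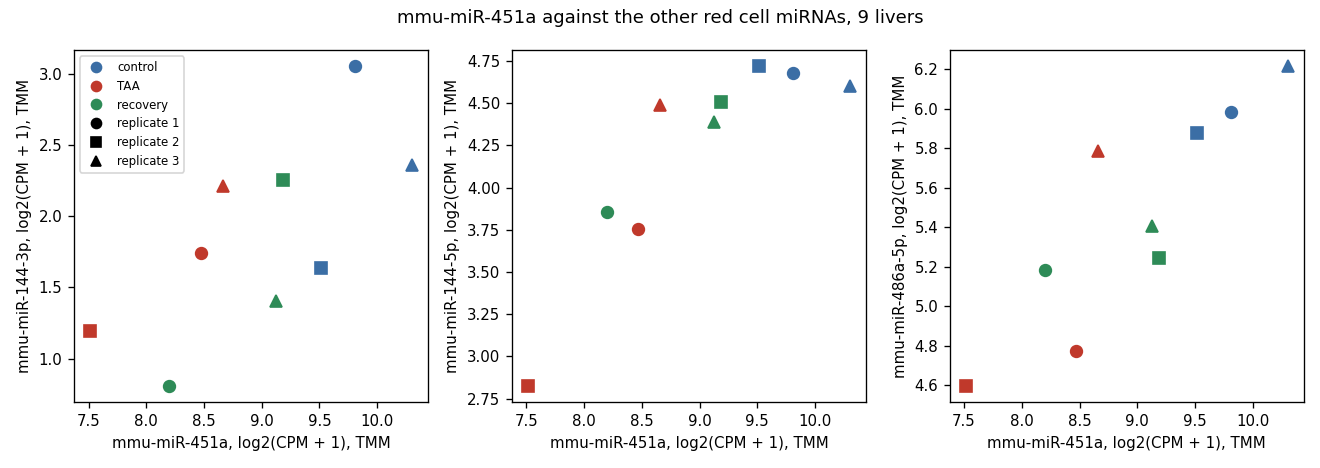
Level of miR-451a (horizontal axis) against miR-144-3p, miR-144-5p and miR-486a-5p in the 9 livers, as log2(CPM + 1) on the TMM scale, coloured by group. The TAA liver marked by the triangle is replicate 3, the one with muscle miRNAs, and lies above the other 2 TAA livers in all 3 panels.

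Leaving out the members themselves, the 5 miRNAs whose pattern was most like that of miR-451a, among 226 with a mean of at least 10 CPM, were mmu-miR-16-5p (r = 0.899), mmu-miR-486a-3p (0.880), mmu-miR-486b-3p (0.871), mmu-miR-29b-3p (0.820) and mmu-miR-152-3p (0.809) over the 9 livers. The mir-486 rows among these 5 held nearly the counts of the member miR-486a-5p, so they repeat it. With the members counted in, miR-486a-5p ranked 3, miR-144-5p 5 and miR-144-3p 27 of the 226. Between them stood miRNAs of other cell types, among them mmu-miR-126a-3p of endothelium (r = 0.744, rank 14). The hepatocyte miRNAs mmu-miR-148a-3p (0.741, rank 15) and mmu-miR-192-5p (0.719, rank 19) also ranked above miR-144-3p. On library totals 3 of the 5 were still among the 5 most alike, namely these mir-486 rows and mmu-miR-29b-3p. There r with mmu-miR-16-5p was 0.164, which ranked 35 of 226. For miR-486a-5p the 5 most alike, again without the members, were the other mir-486 rows, then mmu-miR-16-5p (0.732), mmu-miR-152-3p (0.695) and mmu-miR-22-5p (0.681). On library totals mmu-miR-1a-3p (0.845) and mmu-miR-133a-3p (0.783), the muscle miRNAs, were among its 5 most alike outside the members (ranks 4 and 6 of 226 with the members counted in), together with the mmu-miR-1b-5p row, whose counts are nearly those of mmu-miR-1a-3p. On the TMM scale r of miR-486a-5p with mmu-miR-1a-3p was 0.406, which ranked 80 of 226 with the members counted in. These r are descriptions, since all miRNAs of a library share its depth and scaling.

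MiR-16-5p, which is abundant in red cells and in most other cells, was at 550, 590 and 624 CPM in the control, 482, 374 and 419 CPM in the TAA and 482, 494 and 492 CPM in the recovery livers. Its TAA and recovery values were all below its control values. Its log2 fold change was -0.56 ± 0.12 for TAA against control (edgeR FDR = 0.00621, under 2-fold). On library totals the direction turned, to 0.56 ± 0.12 (edgeR FDR = 0.00361), with the TAA livers at 611 to 690 CPM and the controls at 435 to 471 CPM.

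MiR-16-5p was one of 10 other miRNAs that red cells hold in quantity, and these differed among themselves. Of the 10, 3 rose in the TAA group, namely mmu-miR-183-5p (1.85 ± 0.23, edgeR FDR = 0.000585), mmu-miR-96-5p (1.71 ± 0.27, FDR = 0.00159) and mmu-miR-182-5p (1.70 ± 0.24, FDR = 0.000997), which come from 1 cluster. DEMs that were higher made up 25% of all tested miRNAs. The median log2 fold change of the 10 was 0.12, beside 0.11 for all 420 tested and -0.99 for the 4 members. On library totals 6 of the 10 were higher DEMs, close to the 57.4% of all tested miRNAs. The medians there were 1.23 for the list, 1.23 for all tested miRNAs and 0.13 for the members. In recovery against control 1 of the 10 fell, beside 0.767% of all tested miRNAs that were lower DEMs. It was mmu-miR-363-3p (-2.64 ± 0.69, edgeR FDR = 0.0260), with 16 counts in all over the recovery libraries. The median of the 10 was -0.11 there, beside -0.025 for all 391 and -0.92 for the members.

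Leukocyte miRNAs stood higher in the TAA livers, and those of endothelium lower on the TMM scale. Of 6 leukocyte miRNAs, 2 rose in the TAA group, mmu-miR-223-3p of neutrophils and macrophages (1.15 ± 0.20, edgeR FDR = 0.00217) and mmu-miR-155-5p of activated immune cells (1.65 ± 0.23, FDR = 0.00102), beside the 25% of all tested miRNAs that were higher DEMs. On library totals 6 of 6 were higher DEMs, beside 57.4% of all tested. The summed level of the 6 was 199 to 228 CPM in the control, 298 to 339 CPM in the TAA and 161 to 239 CPM in the recovery livers. The 2 arms of mmu-miR-126a, made in endothelium, had -0.55 and -0.81 (edgeR FDR = 0.00371 and 0.00107, both under 2-fold) in TAA against control and -0.025 and -0.016 in recovery against control (3p and 5p arm in that order). On library totals the 2 arms had 0.58 and 0.31 in TAA against control, so that direction too depended on the scale.

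Hepatocyte miRNAs took a large share of each library. All 4 on the list were lower DEMs in the TAA group on the TMM scale, beside 16.7% of all tested miRNAs. Among them was mmu-miR-122-5p (-1.96 ± 0.061, edgeR FDR = 7.23e-07), and the median of the 4 was -1.61. On library totals the median was -0.49 and none of the 4 was a DEM, where 0.952% of all tested were lower DEMs. In recovery against control their median was -0.23, and none was a DEM on either scale. Of 5 miRNAs of stellate cells and myofibroblasts, 3 rose in the TAA group, beside the 25% of all tested miRNAs that were higher DEMs, with a median of 1.44. On library totals 4 of the 5 were higher DEMs, beside 57.4% of all tested, with a median of 2.55. None was a DEM in recovery against control.

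**Figure D5:**
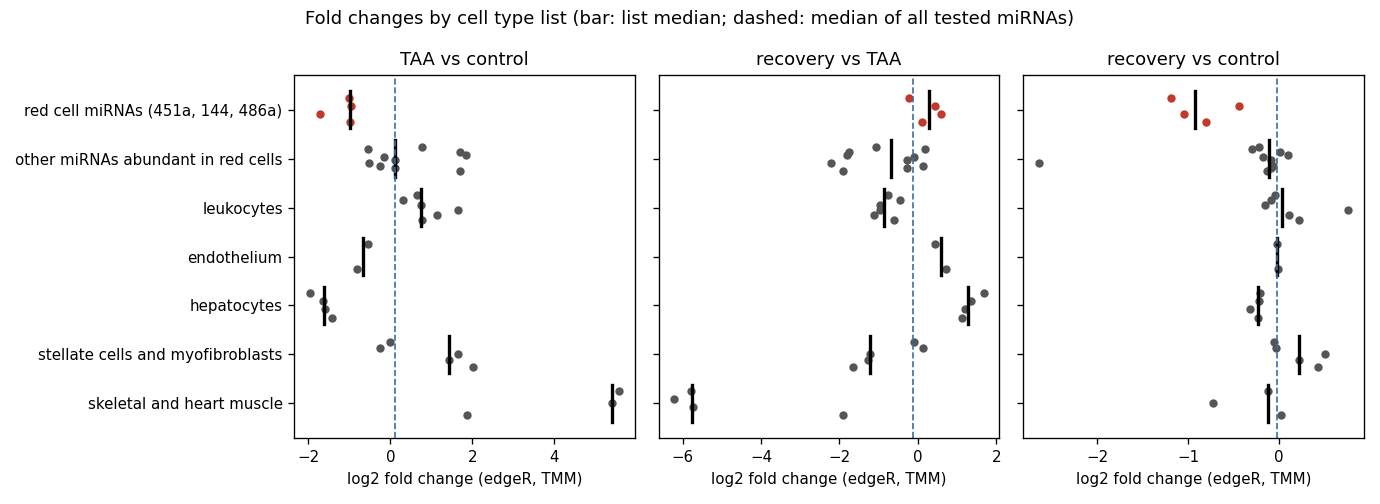
Log2 fold change (edgeR, TMM) of each listed miRNA by cell type in the 3 comparisons, with the list median as a black bar and the median of all tested miRNAs as a dashed line. In recovery against control the 4 red cell members have a median of -0.92 while the medians of the other lists lie between -0.23 and 0.22. Of the TAA livers behind the muscle values, replicate 3 held 4740 CPM of that list.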

How the data were processed

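Small RNA reads (single-end) of 9 livers had been aligned by the authors to mm10 and miRBase with Bowtie 1.3.0 (from the submitters' processing notes). The deposited table holds the raw count and the TPM of each mature miRNA per library. The deposited TPM was each count as a share of its column total, scaled to CPM (largest difference 5e-05). The filter on reads matching several miRNAs is not given in the sources used here. Counts were tested pair by pair with edgeR 4.0.16 (quasi-likelihood, filterByExpr with a minimum count of 10, TMM, 6 libraries per fit), with Benjamini-Hochberg FDR over all miRNAs tested; a DEM had FDR under 0.05 and changed 2-fold or more. The edgeR and permutation code was tested on simulated data. Correlations used log2(CPM + 1) and exact two-sided permutation tests. DESeq2 1.42.0, limma 3.58.1 (log2(TPM + 1)), other scalings, filters and leaving out each library were alternatives.

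Named miRNAs were the members, the other rows of their hairpins, miR-23a-3p, the 5 most alike to miR-451a and to miR-486a-5p, and cell type lists. Members and lists were chosen with earlier results of these data known, and the muscle list after its values were seen. No label gives a batch. Replicate numbers did not pair the livers (correlation of same-numbered deviations from -0.241 to 0.242). Coordinates are GRCm38, the build also named mm10.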

Additional observations from a re-analysis of the deposited data

How the results depend on the processing

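Leaving aside the fits without each library in turn, 109 of 137 member fold changes, 24 of 24 within-group correlations and 17 of 24 correlations kept their direction and their side of the threshold. Library totals without TAA replicate 3, added after the data were seen, are counted here and in the DEM counts. Of the DEM counts, 29 of 35 stayed within 1.5 times the count first given. For the ratios, 42 of 42 differences moved by less than the pooled SD of the 2 groups. The replicate block among these settings cannot change a ratio difference, which it leaves the same by arithmetic. The results that changed follow as log2 fold changes or counts, and their cause was not tested. Library totals gave, for TAA against control, -0.59 (miR-451a), 0.10 (miR-144-3p), 0.17 (miR-144-5p) and 0.15 (miR-486a-5p), for recovery against TAA -0.25 (miR-451a), -0.41 (miR-144-5p), -0.77 (miR-486a-5p) and 207 DEMs in place of 109, and for recovery against control -0.84 (miR-451a). The limma fit on TPM, also on library totals, gave -0.63, 0.13 and 0.038 for miR-451a, miR-144-3p and miR-486a-5p (TAA against control), -0.27, -0.27 and -0.64 for miR-451a, miR-144-5p and miR-486a-5p (recovery against TAA) and -0.89 for miR-451a (recovery against control). DESeq2 size factors made miR-486a-5p a DEM in TAA against control (-1.03), and the DESeq2 test made DEMs of it (-1.03) and of miR-144-5p (-1.01). Without the fold limit miR-486a-5p passed in TAA (-0.98) and in recovery (-0.80) against control, and recovery against TAA had 172 DEMs. A mean of at least 10 CPM left 85, 60 and 13 DEMs in place of 175, 109 and 44, with fewer miRNAs tested, and gave -0.97 for miR-451a (recovery against control) and -0.066 for miR-486a-5p (recovery against TAA). Without a filter miR-144-3p was a DEM in recovery against control (-1.20, edgeR FDR = 0.00682), and in a fit of all 9 livers miR-451a was not (-1.01, edgeR FDR = 0.108). Library totals without TAA replicate 3, added after the data were seen, gave -0.87 for miR-451a (TAA against control), -0.24 for miR-486a-5p and 195 DEMs (recovery against TAA), and r = 0.835, 0.859 and 0.507 for miR-451a with miR-144-5p, miR-451a with miR-486a-5p and miR-144-5p with miR-486a-5p, none below an adjusted exact permutation p of 0.05. The correlation of miR-451a with miR-144-3p passed on library totals (0.716) and on DESeq2 size factors (0.713), and those of miR-144-3p with miR-144-5p (0.723) and with miR-486a-5p (0.735) passed on library totals.

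Leaving out each library in turn gave ranges of -1.48 to -0.61 (miR-144-5p) and -1.45 to -0.77 (miR-486a-5p) in TAA against control, -0.98 to 0.22 (miR-144-3p) and -0.054 to 0.62 (miR-486a-5p) in recovery against TAA, -1.24 to -0.77 (miR-451a) in recovery against control, and r of 0.652 to 0.751 for miR-451a with miR-144-3p. Single fits among these reversed the sign, at -0.012 and -0.054 for miR-486a-5p without TAA replicates 1 and 2, and at 0.19 and 0.22 for miR-144-3p without TAA replicate 3 and without recovery replicate 1. With the replicate number as a block, miR-144-5p (-1.12, edgeR FDR = 0.0147) and miR-486a-5p (-1.08, edgeR FDR = 0.00144) became DEMs in TAA against control and no other call changed, but the numbers do not pair the livers.

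Depth limits miR-144-3p, with 7 to 75 counts per library. With 3 mice a group the smallest exact p of a ratio was 0.1, and near-identical mir-486 rows keep its arms from being read apart.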
